A study of Homo sapiens with 3 samples.

Results

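The comparison described here sets 1 array of BE(2)-C cells that received WDR5 siRNA-2 against 1 array of cells that received control siRNA, 2 of the 3 arrays of the study. BE(2)-C is an established human neuroblastoma line, a tumour line of the peripheral nervous system, and the labels give it as MYCN-amplified in every group. Cells had received the control siRNA or 1 of the WDR5 siRNAs, named siRNA-1 and siRNA-2, for 40 hours, and total RNA was read on Affymetrix HuGene-2_0-st arrays, which measure whole transcripts with many probes per gene. Each group had 1 array, so no value below has a replicate error, no difference was tested, and every fold sets 1 array against another. A culture is a mixture of cells, so fewer cells of a kind and less RNA per cell cannot be told apart.

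WDR5 is a small propeller-shaped protein that holds together the methyltransferase complexes which place methyl groups on lysine 4 of histone H3, a mark of active promoters. It also sits in acetyltransferase complexes and binds MYC proteins, and in MYCN-amplified neuroblastoma it has been studied as a partner of N-Myc at the promoters of growth and cell cycle genes. A short interfering RNA lowers the transcript it is designed against, and it can also lower other transcripts with partial matches, which is why a second siRNA of different sequence is commonly used beside it.

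For each gene the log2 level on the control array was subtracted from that on the siRNA-2 array. Where several probe sets shared a symbol, the brightest by its mean over all arrays stood for the gene, so 14884 genes with a symbol were available. The 7442 genes whose mean level was at or above the median, a log2 level of 6.78, were kept. The last gene inside this limit, PABIR3, had a mean of 6.78287 and the first outside it, C20orf141, a mean of 6.78263. The ratio to the siRNA-1 array is given beside many values for contrast. Both ratios use the same control array, so an unusual value on that array enters both.

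Levels over the kept genes were alike on the 3 arrays, with medians of 8.56 (control), 8.52 (siRNA-1) and 8.51 (siRNA-2). The median log2 ratio of siRNA-2 over control was 0, since 25.7% of the kept genes had exactly the same value on both arrays, and the central 90% of ratios ran from -0.52 to 0.38. The 23 background control rows of the array ranged from 1.75 to 9.26, so folds that end at low levels are less certain than folds between bright values. The defining genes of noradrenergic neuroblastoma were present. HAND2 stood at 11.6, 11.6 and 11.2, and GATA3 at 10.8, 10.8 and 10.5 with control, siRNA-1 and siRNA-2. PHOX2A stood at 9.42, 9.23 and 9.46. Of 12 listed Schwann and stromal markers 4 were measured and 2 kept, S100B and SOX10, both with ratios of 0. Of 14 listed leukocyte and endothelial markers 7 were measured and 1 kept, CD68, with a ratio of 0.08.

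The targeted transcript was lower. WDR5 had a level of 9.46 on the control array and of 7.90 on either siRNA array, 2.95-fold lower, and had the seventh lowest ratio of the kept genes with siRNA-2. The level of 7.90 lies within the range of the background rows. Exactly equal values on the siRNA arrays were common, found in 21.5% of the kept genes, so this tie cannot be read as an equal lowering.

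On the siRNA-2 array 163 genes exceeded control by 1.5-fold or more, 2.19% of the 7442 kept, and 298 were at least 1.5-fold lower, 4.00% of those kept. At 2-fold the counts were 29 and 49. The excess of lower genes was smaller among bright genes: where the higher of the compared arrays had to exceed the highest background row, 102 were higher and 119 lower. Just inside the 1.5-fold limit lay MINPP1 (1.50003-fold higher) and PTTG1 (1.50198-fold lower), and just outside it SPRY4 (1.49967-fold higher) and HERPUD2 (1.49883-fold lower). Of the higher genes 152 were protein-coding, 8 were microRNA genes and 3 long noncoding RNAs. Of the lower genes 262 were protein-coding and 25 were long noncoding RNAs, with 8 transcribed pseudogenes, the telomerase RNA gene TERC, 1 microRNA gene and 1 other noncoding RNA gene making up the rest. On the siRNA-2 array 31 of the lower genes stood below the filter level.

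**Figure D1:**
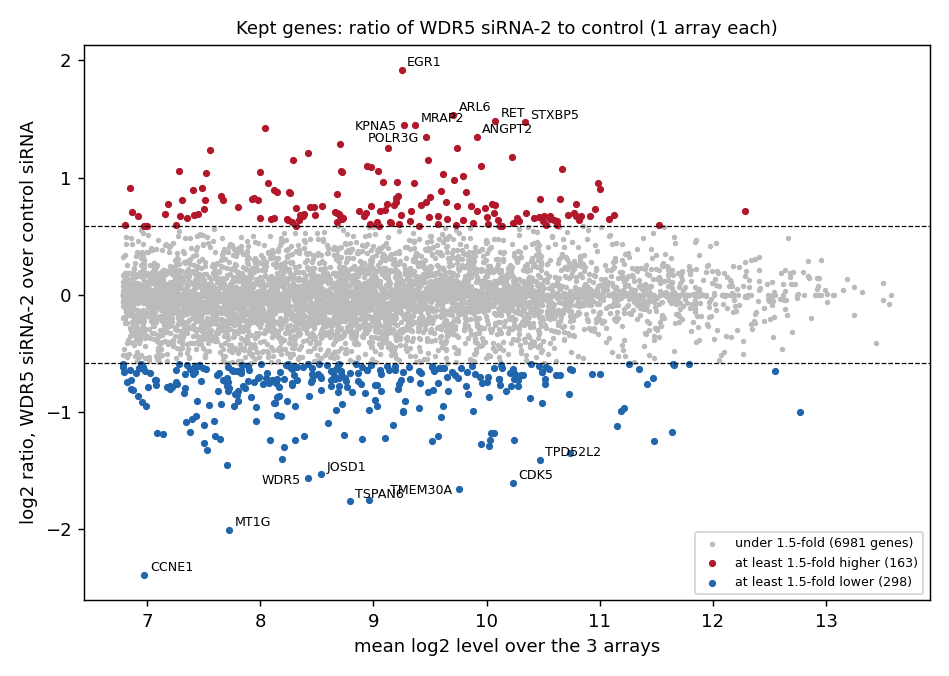
Each point is a kept gene, with its mean log2 level over the 3 arrays on the horizontal axis and its log2 ratio of WDR5 siRNA-2 over control siRNA (1 array each) on the vertical axis; dashed lines mark 1.5-fold. Red points are the 163 higher genes, blue points the 298 lower genes and grey points the 6981 between them; EGR1 (1.92) and CCNE1 (-2.39) are the ends of the range.

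A group on the high side consisted of microRNA genes of chromosome 14, in the imprinted stretch between DLK1 and DIO3. In this region the maternal chromosome gives rise to long noncoding transcripts, MEG3 among them, from which a large cluster of microRNAs is processed. These genes were singled out after their values were seen. A mature microRNA pairs with its targets mainly through its seed, bases 2 to 8, and the sequences are shown because microRNAs of a cluster can share a seed and so a set of targets. For the 8 genes at least 1.5-fold higher with siRNA-2, 1 mature arm each is printed from RefSeq (GRCh38.p14, plus strand of chromosome 14), 5′ to 3′, with the seed in capitals:

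hsa-miR-770-5p: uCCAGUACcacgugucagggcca

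hsa-miR-300: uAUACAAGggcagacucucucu

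hsa-miR-487b-3p: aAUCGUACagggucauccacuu

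hsa-miR-539-3p: aUCAUACAaggacaauuucuuu

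hsa-miR-323b-3p: cCCAAUACacggucgaccucuu

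hsa-miR-154-3p: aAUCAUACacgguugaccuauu

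hsa-miR-377-3p: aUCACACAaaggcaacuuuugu

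hsa-miR-656-3p: aAUAUUAUacagucaaccucu

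In RefSeq hsa-miR-770-5p lies at chr14:100852409-100852431 and hsa-miR-656-3p at chr14:101066766-101066786, and the other 6 lie between them. The 8 genes have 14 mature arms in the table, and these carry 14 different seeds. Some seeds recur elsewhere in the region. The seed of hsa-miR-300, AUACAAG, is also that of hsa-miR-381-3p, the seed of hsa-miR-539-3p, UCAUACA, that of hsa-miR-485-3p, and the seed of hsa-miR-154-3p, AUCAUAC, that of hsa-miR-487a-3p. Over the whole region 53 microRNA genes had mature sequences, with 92 arms and 81 different seeds. The array probes read the hairpin gene and do not tell which arm is made, nor whether the mature microRNA changed.

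Of 53 measured microRNA genes of this region, 22 were kept. With siRNA-2, 8 of the 22 were at least 1.5-fold higher and 0 lower, against 2.19% and 4.00% of all kept genes, and 20 were above control by any amount, 0 below and 2 equal to it. MIR487B, 1 of the 8, and MIR668 had levels under the filter level on the control and siRNA-1 arrays and were kept through the siRNA-2 array, where they were high. Over all kept genes 5 of the 163 higher genes had a control level under the filter level, and 32.6% of genes were above control. The median log2 ratio of the 22 was 0.53 with siRNA-2 and -0.31 with siRNA-1, where 18 of the 22 were below control and 3 above. The 169 kept microRNA genes elsewhere in the genome had a median of 0 with siRNA-2, with 0 at least 1.5-fold higher and 1 lower (MIR2909, -0.76, and -0.50 with the mean of its probe sets). Among the 31 members of the region below the filter level, 4 were at least 1.5-fold higher with siRNA-2, 22 were above control and 1 below.

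MIR770, which lies within MEG3, stood at 7.49 with control, 7.71 with siRNA-1 and 8.91 with siRNA-2, 2.67-fold higher with siRNA-2. MIR487B stood at 6.76, 6.11 and 7.67, and MIR323B at 7.24, 6.83 and 8.13 in the same order. In each of these 3 genes the siRNA-2 array was the highest of the arrays. MIR154 (7.26, 7.20 and 8.06) and MIR656 (7.35, 6.97 and 8.04) also had the siRNA-1 array lowest and the siRNA-2 array highest, and MIR539 had ratios of 0.81 with siRNA-2 and -0.45 with siRNA-1. MIR300 stood at 7.27, 6.64 and 7.95, and MIR377 at 7.11, 7.19 and 7.77. All of these levels lie within the range of the background rows. The long transcripts of the region were bright. MEG3 stood at 10.26 with control, 10.16 with siRNA-1 and 10.81 with siRNA-2, a log2 ratio of 0.55 that falls short of 1.5-fold. DLK1, the protein-coding gene at the border of the region and a Notch-like membrane protein of the sympathoadrenal lineage, had a ratio of 0.29 (12.72, 12.78 and 13.01), and RTL1, a retrotransposon-derived gene inside it, a ratio of 0.35 (9.19, 8.84 and 9.54).

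**Figure D2:**
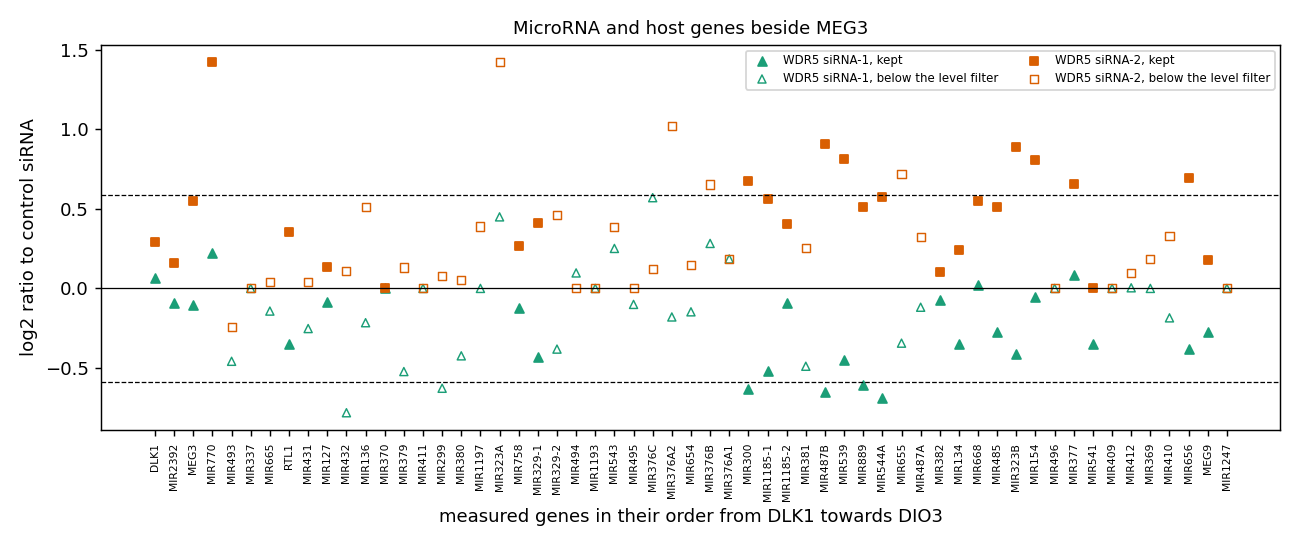
Log2 ratios to control siRNA (vertical axis, 1 array per group) of the measured microRNA genes and of DLK1, MEG3, RTL1 and MEG9, in their order along the region (horizontal axis); squares are WDR5 siRNA-2, triangles WDR5 siRNA-1, filled symbols kept genes, open symbols genes below the filter level, and dashed lines 1.5-fold. Of the 22 kept microRNA genes 20 lie above 0 with siRNA-2, and 18 lie below 0 with siRNA-1.

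Among protein-coding genes, the highest ratios with siRNA-2 included genes of signalling and secretion. EGR1, an immediate-early transcription factor, stood at 7.93 with control, 9.98 with siRNA-1 and 9.84 with siRNA-2, 3.78-fold higher with siRNA-2. RET, the receptor tyrosine kinase for glial cell line-derived neurotrophic factor and its relatives, stood at 9.47, 9.79 and 10.96, 2.80-fold higher with siRNA-2. On the siRNA-1 array RET was 1.25-fold above control, whereas EGR1 was high on both siRNA arrays. ANGPT2, a secreted ligand of the endothelial TIE2 receptor, stood at 9.23, 9.94 and 10.58, 2.55-fold higher. MRAP2, an accessory protein of melanocortin receptors, stood at 9.08 with control, 8.50 with siRNA-1 and 10.53 with siRNA-2, 2.72-fold higher with siRNA-2 but below control with siRNA-1. VGF, a neuropeptide precursor, stood at 8.69, 9.93 and 9.84, 2.21-fold higher, and the orphan receptor GPR22 stood at 6.99, 7.45 and 8.22, 2.35-fold higher. For 4 of these 6 genes the siRNA-2 array was the highest of the 3, and for EGR1 and VGF it was the siRNA-1 array.

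The other genes at the high end act inside the cell. STXBP5 (tomosyn, a brake on vesicle fusion) stood at 9.51 with control, 10.53 with siRNA-1 and 10.98 with siRNA-2, 2.77-fold higher with siRNA-2. ARL6, a small GTPase of the primary cilium, stood at 8.87, 9.84 and 10.40, 2.89-fold higher, and KPNA5, an importin alpha, at 8.30, 9.75 and 9.75, 2.73-fold higher. POLR3G encodes a subunit of RNA polymerase III. It stood at 9.07, 8.90 and 10.42, 2.54-fold higher with siRNA-2, with the siRNA-1 array slightly below control. SMIM15, a small membrane protein, and the noncoding RNA NRAV were 2.37-fold and 2.38-fold higher. GNPNAT1, an enzyme that makes the amino sugar donor for glycans, was 2.25-fold higher (9.68, 10.15 and 10.85).

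At the low end was CCNE1, which encodes cyclin E1, the partner of CDK2 at the start of DNA replication. It stood at 8.37 with control, 6.59 with siRNA-1 and 5.98 with siRNA-2, 5.23-fold lower, and the siRNA-2 level is below the filter level. TSPAN6, a tetraspanin of the cell membrane, stood at 9.51, 9.11 and 7.75, 3.39-fold lower with siRNA-2. TMEM30A is the partner subunit of the flippases that move phospholipids to the inner leaflet of membranes. It stood at 10.12 with control, 10.69 with siRNA-1 and 8.47 with siRNA-2, 3.15-fold lower with siRNA-2 and above control with siRNA-1. CDK5, a kinase of postmitotic neurons, stood at 10.86, 10.58 and 9.26, 3.04-fold lower. ADCYAP1R1, the receptor for the neuropeptide PACAP, stood at 8.45, 7.67 and 6.999, 2.73-fold lower. MOB1B, a coactivator of the LATS kinases of the Hippo pathway, stood at 8.45, 9.02 and 7.15, 2.46-fold lower with siRNA-2. In all of these genes except CCNE1 and ADCYAP1R1 the siRNA-1 level was nearer to the control level than to the siRNA-2 level. In CCNE1 and ADCYAP1R1 it was below control and nearer to the siRNA-2 level.

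**Figure D3:**
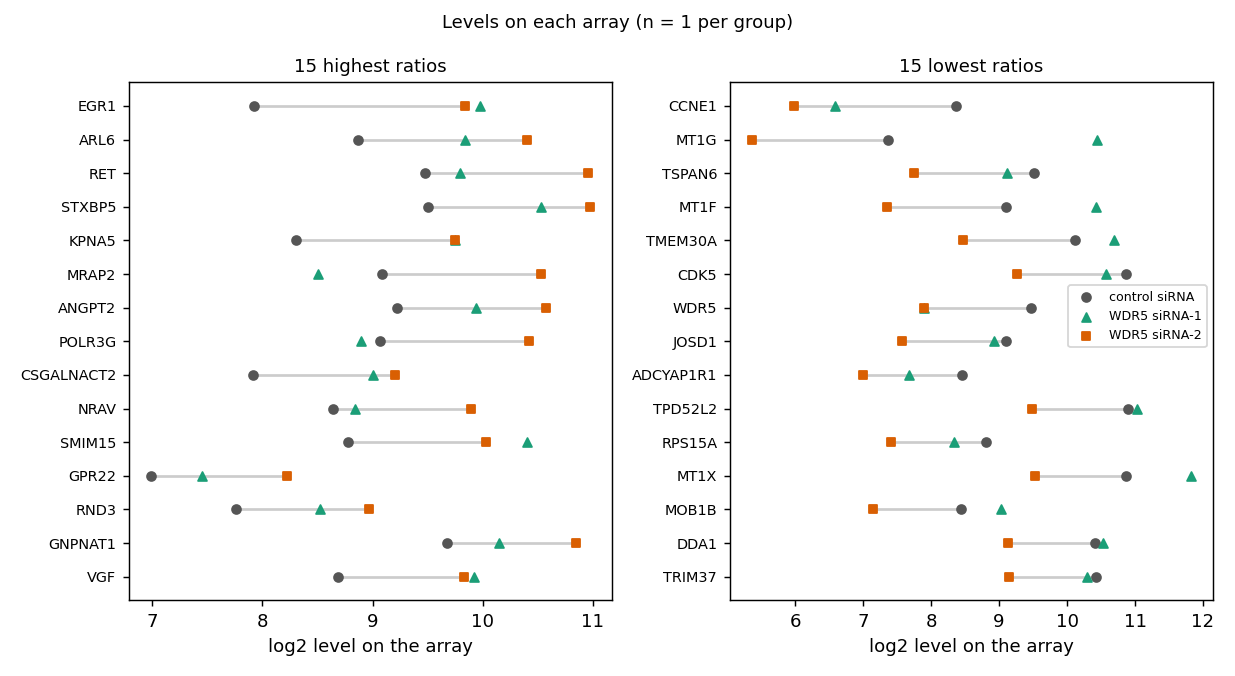
Log2 levels (horizontal axis) on the control siRNA (grey circles), WDR5 siRNA-1 (green triangles) and WDR5 siRNA-2 (orange squares) arrays, 1 array each, for the 15 kept genes with the highest (left) and the 15 with the lowest (right) ratio of siRNA-2 over control; levels of different genes are not comparable. MT1G, MT1F and MT1X lie on opposite sides of control with the siRNAs, and WDR5 has the same level of 7.90 with each. Small RNA genes and other kinds of gene not named here were left out of the ranking, among them MIR770 (1.42).

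Of the metallothioneins, small proteins that bind zinc and copper, 3 were far below control with siRNA-2. MT1G stood at 7.36 with control, 10.44 with siRNA-1 and 5.36 with siRNA-2, 4.00-fold lower with siRNA-2, a level below the filter level. MT1F stood at 9.10, 10.43 and 7.35, 3.35-fold lower, and MT1X at 10.87, 11.82 and 9.52, 2.55-fold lower. These 3 genes were above control on the siRNA-1 array and below it on the siRNA-2 array. MT2A had the same order (9.87, 10.40 and 9.31), 1.47-fold lower with siRNA-2. MT1E stood at 6.85 on all arrays, and MTF1, the zinc-sensing transcription factor that acts on these genes, had a ratio of 0.22 with each siRNA. Of the 6 kept members of the metallothionein and metal transport list 3 were at least 1.5-fold lower and 0 higher, with a median of -0.95. The shares over all kept genes were 4.00% lower and 2.19% higher. With no level filter 10 members entered and the median was -0.07. Metallothionein genes are close paralogs, so their probes may read each other's transcripts.

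A further set of genes lay on opposite sides of control with the siRNAs by at least 1.5-fold in each direction, chosen after the values were seen. LRRTM1, a postsynaptic adhesion protein, stood at 8.87 with control, 7.99 with siRNA-1 and 9.97 with siRNA-2. NPY2R, a receptor for neuropeptide Y, stood at 10.55, 9.48 and 11.21, and KIF3B, a motor subunit of intraflagellar transport, at 8.50, 7.36 and 9.18. In these 3 the siRNA-2 array was highest and the siRNA-1 array lowest. The reverse order was found for HIPK3, a nuclear kinase (8.87 with control, 10.13 with siRNA-1 and 8.10 with siRNA-2), and for UHMK1, a kinase of splicing factors (9.21, 10.57 and 8.46). The long noncoding RNA NORAD, which sequesters PUMILIO proteins, had the same order but was just under 1.5-fold above control with siRNA-1 (11.70, 12.27 and 10.46), and was 2.37-fold lower with siRNA-2.

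Genes past 1.5-fold with siRNA-2 that stayed within 1.2-fold of control with siRNA-1 were then described apart. There were 49 higher genes of this kind, 0.658% of those kept, and 135 lower genes, 1.81%. Of all 163 higher genes, 46 were at least 1.5-fold higher with siRNA-1 too and 46 were between 1.2-fold and 1.5-fold higher. The other 22 were beyond 1.2-fold below control with siRNA-1. For the 298 lower genes these counts were 63 and 68 lower with siRNA-1, and 32 beyond 1.2-fold above control. The medians of the 49 were 8.68 with control, 8.65 with siRNA-1 and 9.41 with siRNA-2, and those of the 135 were 9.096, 9.096 and 8.30. Where a level above the highest background row was required, 27 and 59 were left. Being near control with siRNA-1 does not by itself set the siRNAs apart. Of the 49 higher genes 33 were also at least 1.5-fold higher on the siRNA-2 array than on the siRNA-1 array, and of the 135 lower genes 103 were at least 1.5-fold lower.

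On the high side of this set the highest was the microRNA gene MIR770, followed by POLR3G and NRAV, all given above. After POLR3G and NRAV came FAM30A, a noncoding RNA (8.68 with control, 8.47 with siRNA-1 and 9.77 with siRNA-2). CHST11, which sulfates chondroitin, stood at 7.58, 7.77 and 8.63, 2.07-fold higher with siRNA-2. NRP2, a co-receptor for semaphorins and vascular growth factors, stood at 7.17, 7.17 and 8.21, 2.05-fold higher, with the control and siRNA-1 arrays level. CLSTN2, a calsyntenin of postsynaptic membranes, stood at 9.48, 9.41 and 10.49, 2.02-fold higher. HS3ST2, which adds sulfate groups to heparan sulfate, stood at 8.97, 8.84 and 9.79, and FNDC3A, a protein with fibronectin-type domains, at 10.73, 10.55 and 11.68. ACSS2, which makes acetyl-CoA from acetate in the cytosol and nucleus, was 1.76-fold higher (7.64, 7.70 and 8.45), and NHSL2 1.78-fold.

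On the low side of this set the lowest was JOSD1. JOSD1, a deubiquitinase, stood at 9.11 with control, 8.93 with siRNA-1 and 7.58 with siRNA-2, 2.89-fold lower with siRNA-2. DDA1, a subunit of cullin-4 ubiquitin ligases, stood at 10.42, 10.53 and 9.12, 2.45-fold lower. TRIM37, a ubiquitin ligase that acts at centrosomes and peroxisomes, stood at 10.42, 10.29 and 9.15, 2.41-fold lower. For these 3 the control and siRNA-1 arrays were within 0.18 of each other on the log2 scale. TPD52L2, of the tumour protein D52 family of vesicle traffic proteins, was 2.65-fold lower (10.89, 11.03 and 9.49). MFN2, which fuses outer mitochondrial membranes, stood at 8.84, 8.69 and 7.64, 2.31-fold lower. CLDND1, a claudin-like membrane protein, stood at 9.93, 9.93 and 8.69, 2.37-fold lower, and MNS1, a structural protein of cilia and flagella, at 8.49, 8.52 and 7.25, 2.36-fold lower. FAM200C, the protocadherin pseudogene PCDHB18P and TMED8 completed the 10 lowest, 2.35-fold, 2.34-fold and 2.29-fold lower.

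**Figure D4:**
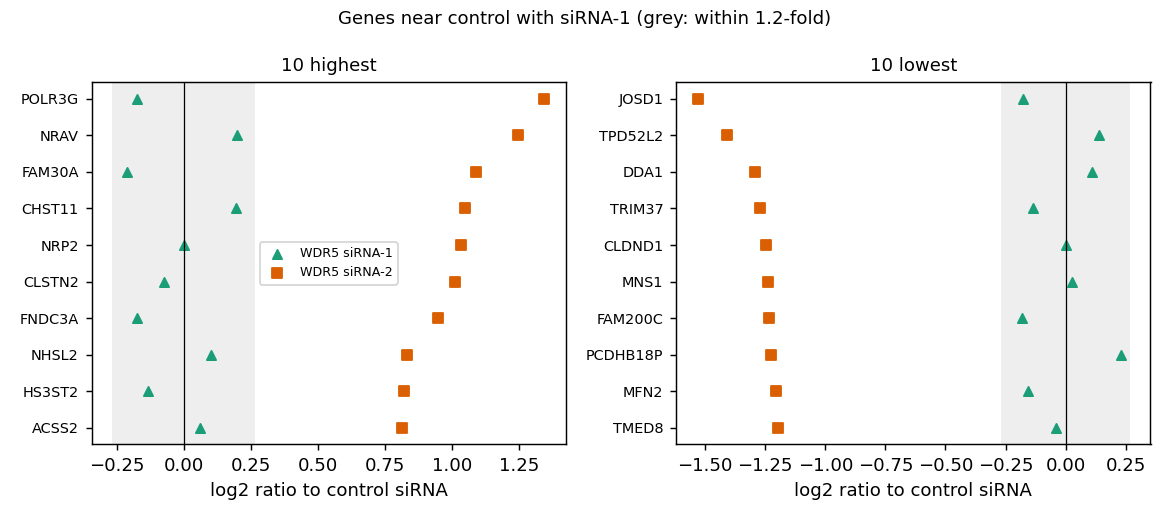
Log2 ratios to control siRNA (horizontal axis, 1 array per group) of the 10 highest (left) and the 10 lowest (right) genes with WDR5 siRNA-2 among those within 1.2-fold of control with WDR5 siRNA-1; orange squares are siRNA-2, green triangles siRNA-1 and the grey band is 1.2-fold. The genes were chosen for this pattern, with siRNA-2 ratios from 0.81 to 1.35 on the left and from -1.53 to -1.20 on the right. Small RNA genes were left out of this ranking, so MIR770 (1.42) is not shown.

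Further lists, chosen after the values were seen, give the members of some of these groups in full. Of 122 kept subunits of cullin-RING ubiquitin ligases 0 were at least 1.5-fold higher and 11 lower, against 2.19% and 4.00% of all kept genes, and the list's median was 0. Of the 122, 9 were lower with siRNA-2 and near control with siRNA-1, against 1.81% of all kept genes. Over all kept genes 135 of the 298 lower genes were near control with siRNA-1. The bright substrate receptor WSB2 stood at 11.98 with control, 12.14 with siRNA-1 and 10.80 with siRNA-2, 2.26-fold lower with siRNA-2. UBA3, a subunit of the enzyme that activates NEDD8, the modifier that switches cullins on, stood at 10.89, 10.85 and 10.21. Of 51 kept deubiquitinases 0 were higher and 4 lower, against the same 2.19% and 4.00%, again with a median of 0. USP12 was 2.13-fold lower with siRNA-2 (8.88, 9.12 and 7.79) and USP5, which takes apart free ubiquitin chains, was 1.77-fold lower (10.00, 9.81 and 9.18). Of 31 kept enzymes of glycosaminoglycan and O-glycan synthesis 5 were higher and 1 lower, against 2.19% and 4.00%, with a median of 0.07. CSGALNACT2, which starts chondroitin chains, stood at 7.91, 9.002 and 9.20, 2.44-fold higher. GALNT1, which starts mucin-type O-glycans, was 2.14-fold higher (9.33, 10.11 and 10.42), and CHST14, the dermatan sulfotransferase, was 1.59-fold lower (8.98, 8.08 and 8.31).

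Enzymes of sterol synthesis were on the high side with siRNA-2. Of 21 listed genes 14 were measured and 12 kept, of which 5 were at least 1.5-fold higher, 0 lower and 7 neither, and 11 of the 12 were above control by any amount. Over all kept genes 2.19% were at least 1.5-fold higher and 32.6% above control. The median log2 ratio was 0.52 with siRNA-2 and 0.17 with siRNA-1, against 0 over all kept genes. HMGCS1, which makes HMG-CoA, the substrate of the rate-limiting reductase, stood at 9.96 with control, 10.42 with siRNA-1 and 10.65 with siRNA-2, 1.62-fold higher with siRNA-2. MVD, which makes isopentenyl diphosphate, stood at 8.79, 9.01 and 9.51, 1.65-fold higher. ACAT2, the acetoacetyl-CoA thiolase, was 1.77-fold higher (10.06, 10.48 and 10.88). In these 3 genes the siRNA-1 array lay between control and siRNA-2. The late enzymes DHCR7 (9.55, 10.11 and 10.29) and NSDHL (10.77, 11.07 and 11.42) were 1.67-fold and 1.57-fold higher. IDI1 had a ratio of 0.55, and of 0.59 with quantile normalization, which is past 1.5-fold.

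The regulators of sterol synthesis had smaller ratios. Of 8 kept genes of sterol sensing and uptake 0 were past 1.5-fold, with a median of 0.08. Over all kept genes 2.19% were higher and 4.00% lower. SREBF2, the main transcription factor of the pathway, had a ratio of 0.33 with siRNA-2 and -0.24 with siRNA-1, and INSIG1, which helps hold it in the endoplasmic reticulum, of 0.44 and 0.71. Of 16 kept genes of fatty acid synthesis 2 were at least 1.5-fold higher and 0 lower, against 2.19% and 4.00% of all kept genes. The median was 0.19 (0.09 with no level filter). The 2 higher genes were ACSS2 and ACSL4, which activates long polyunsaturated fatty acids (9.86, 9.65 and 10.64). FASN, the fatty acid synthase, had a ratio of 0.35.

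Genes of S phase and DNA repair were on the low side. Of 26 kept DNA replication genes 5 were at least 1.5-fold lower, 0 higher and 21 neither, and 25 of the 26 were below control by any amount. Over all kept genes 4.00% were at least 1.5-fold lower and 41.6% were below control. The median of the replication genes was -0.34 with siRNA-2 and -0.17 with siRNA-1. FEN1, the flap endonuclease of lagging-strand synthesis, stood at 8.96 with control, 8.78 with siRNA-1 and 8.25 with siRNA-2, 1.65-fold lower with siRNA-2. ASF1B, a histone chaperone, stood at 10.74, 10.11 and 9.97, 1.71-fold lower, and CLSPN, the checkpoint mediator claspin, at 8.08, 7.67 and 7.37, 1.64-fold lower. All 3 were lowest on the siRNA-2 array. The helicase subunits GINS4 and GINS2 were 1.63-fold and 1.51-fold lower, but GINS4 had a ratio of -0.39 with the mean of its probe sets and GINS2 of -0.54 with quantile normalization. Of 20 kept G1 to S cyclins and E2F factors 3 were lower and 0 higher, with a median of -0.20. Beside CCNE1 these were E2F1 (10.86, 9.72 and 10.18) and E2F7 (9.31, 7.88 and 8.66), both lower still with siRNA-1. The nucleotide synthesis list had 2 of 21 lower and a median of -0.02, and in it TYMS, the thymidylate synthase, was 1.55-fold lower (11.07, 10.70 and 10.44).

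The homologous recombination and Fanconi list had the lowest median of the repair and cell cycle lists, -0.44 with siRNA-2 and -0.21 with siRNA-1. Of its 21 kept members 5 were at least 1.5-fold lower, 0 higher and 16 neither, and 19 were below control, against 4.00% lower and 41.6% below control over all kept genes. BRIP1, a helicase that works with BRCA1, stood at 10.89 with control, 10.18 with siRNA-1 and 9.65 with siRNA-2, 2.36-fold lower with siRNA-2. CHEK2, the checkpoint kinase, was 1.92-fold lower (7.98, 7.62 and 7.05) and RAD54L, a motor of strand exchange, 1.71-fold lower (8.13, 7.64 and 7.35). The mismatch repair gene MSH6 stood at 9.60, 9.24 and 8.95, 1.58-fold lower. In each of these 4 genes siRNA-1 lay between control and siRNA-2. PALB2, the partner of BRCA2, had a ratio of -0.63, and of -0.58 with quantile normalization, which is under 1.5-fold.

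Most mitotic genes were below control by less than 1.5-fold. Of 36 kept mitotic kinases, cyclins and exit genes 32 were below control, against 41.6% of all kept genes, but 2 were at least 1.5-fold lower, against 4.00%, and 0 higher, with a median of -0.19. These were ESPL1, the protease separase (9.02, 8.74 and 8.38), and its inhibitor PTTG1, securin (7.09, 6.77 and 6.51). Of 27 kept kinetochore and centromere genes 23 were below control and 2 at least 1.5-fold lower, with a median of -0.25 with siRNA-2 and -0.06 with siRNA-1. CENPH stood at 9.17, 9.15 and 8.53 and CENPU at 9.85, 9.72 and 9.22. PTTG1, CENPH and CENPU were under 1.5-fold with quantile normalization (-0.55, -0.58 and -0.58). Of 30 kept kinesins 3 were lower, KIFC1, KIF15 and KIF14, and 1 was higher, KIF3B, against 4.00% and 2.19% of all kept genes, with a median of -0.14. KIFC1 had a ratio of -0.68, and of -0.52 with the mean of its probe sets, and KIF14 one of -0.61, and of -0.56 with each array centred on its median. None of 13 kept condensin and cohesin genes was past 1.5-fold, and their median was -0.02.

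**Figure D5:**
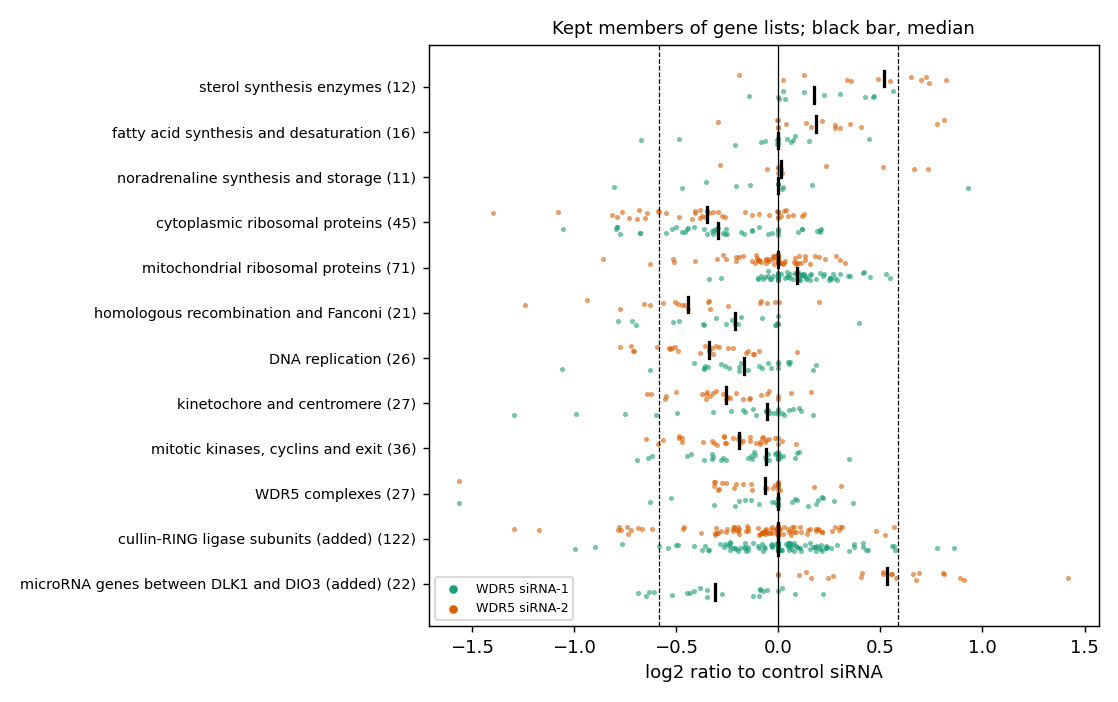
Log2 ratios to control siRNA (horizontal axis, 1 array per group) of the kept members of 12 gene lists, with the number of members in parentheses; orange points are WDR5 siRNA-2, green points WDR5 siRNA-1, black bars the medians and dashed lines 1.5-fold. With siRNA-2 the medians run from -0.44 (homologous recombination and Fanconi) to 0.53 (microRNA genes between DLK1 and DIO3), against 0 over all kept genes.

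Promoter letters were read for the genes with a window in the RefSeq table (GRCh38.p14), 250 bases before to 50 after the start, which covers 5986 of the 7442 kept genes. The letters TTTCCCGC, a spelling of the site bound by E2F factors, were searched on both strands (GCGGGAAA on the other). They were found in 7.59% of the 237 lower genes with a window and in 2 of the 133 higher genes with a window. Of all kept genes with a window 3.54% held them. A gene was counted when any of its windows matched. Counted per window instead of per gene, the letters were in 1.63% of all windows in the table. Of 22 DNA replication genes with a window, higher, lower or neither, 8 held them. The other lists on the low side held them less often. The counts were 2 of 18 homologous recombination and Fanconi genes and 1 of 16 G1 to S cyclins and E2F factors. They were 1 of 21 kinetochore and centromere genes and 0 of 30 mitotic kinases, cyclins and exit genes. The windows of 4 lower genes of DNA synthesis and repair are shown, with the matched letters in capitals. They come from CLSPN (chr1:35769929-35770228, minus strand), GINS2 (chr16:85688905-85689204, minus strand), MSH6 (chr2:47782895-47783194, plus strand) and TYMS (chr18:657403-657702, plus strand).

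CLSPN: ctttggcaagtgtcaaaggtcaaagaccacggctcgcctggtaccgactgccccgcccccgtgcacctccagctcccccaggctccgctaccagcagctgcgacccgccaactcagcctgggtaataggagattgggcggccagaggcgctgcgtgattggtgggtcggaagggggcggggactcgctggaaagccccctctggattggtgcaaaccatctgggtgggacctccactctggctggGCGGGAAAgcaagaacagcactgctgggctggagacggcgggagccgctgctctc

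GINS2: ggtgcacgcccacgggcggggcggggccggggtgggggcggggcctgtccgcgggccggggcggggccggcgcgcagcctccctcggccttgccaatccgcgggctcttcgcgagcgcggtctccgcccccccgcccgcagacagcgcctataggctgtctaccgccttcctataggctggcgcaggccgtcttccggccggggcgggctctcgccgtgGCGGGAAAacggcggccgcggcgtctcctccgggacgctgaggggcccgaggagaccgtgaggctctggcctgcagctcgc

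MSH6: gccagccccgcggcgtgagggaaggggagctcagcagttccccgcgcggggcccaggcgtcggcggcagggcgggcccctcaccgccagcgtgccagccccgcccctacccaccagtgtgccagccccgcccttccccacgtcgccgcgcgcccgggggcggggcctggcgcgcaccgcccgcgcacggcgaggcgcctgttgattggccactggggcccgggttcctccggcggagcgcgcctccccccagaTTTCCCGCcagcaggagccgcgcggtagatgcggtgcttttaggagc

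TYMS: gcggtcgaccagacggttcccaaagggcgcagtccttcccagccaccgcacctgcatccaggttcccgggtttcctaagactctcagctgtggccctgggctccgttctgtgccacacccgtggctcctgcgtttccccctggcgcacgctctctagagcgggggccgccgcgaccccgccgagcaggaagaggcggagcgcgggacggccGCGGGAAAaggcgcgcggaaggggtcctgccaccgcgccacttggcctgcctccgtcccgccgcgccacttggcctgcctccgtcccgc

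A match describes these letters in this window, not a bound site. The letters TTTGAA, the cell cycle homology region of late cell cycle promoters, were searched on both strands too. They stood in 14.8% of the lower genes with a window, 14.3% of the higher genes and 13.4% of all kept genes. Of the 30 mitotic kinases, cyclins and exit genes with a window 21 held them. The letters CACGTG, an E-box, stood in 7.59% of the lower genes, 9.02% of the higher genes and 13.2% of all kept genes. For TGCGCNC, the metal response element, with N any base, these shares were 37.6%, 37.6% and 37.9%.

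For the sterol enzymes the letters CCAAT, bound by the factor NF-Y, were found on either strand (ATTGG on the other) in 9 of the 10 members with a window. The share was 43.5% among all kept genes, 41.4% among the higher and 41.4% among the lower genes. Counted per window, it was 34.6% of all windows in the table. The letters also stood in 12 of 15 fatty acid genes and 24 of 30 mitotic kinases, cyclins and exit genes. The letters TCACCCCAC, the core of a binding site of the sterol regulatory factors, were in 0 of the 10 sterol enzymes. They were in 2 of the 15 fatty acid genes. Of all kept genes with a window 0.601% held them. Their absence from the sterol enzymes says only that this spelling is not in those windows. HMGCS1 (chr5:43313363-43313662, minus strand) and MVD (chr16:88663042-88663341, minus strand), an early and a middle enzyme of the pathway, hold the CCAAT letters more than once:

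HMGCS1: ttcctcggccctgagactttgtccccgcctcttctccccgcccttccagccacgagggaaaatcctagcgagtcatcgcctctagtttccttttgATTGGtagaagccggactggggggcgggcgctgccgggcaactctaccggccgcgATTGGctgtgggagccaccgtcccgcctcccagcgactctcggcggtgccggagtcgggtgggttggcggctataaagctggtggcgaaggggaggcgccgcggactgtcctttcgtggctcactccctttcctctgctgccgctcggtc

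MVD: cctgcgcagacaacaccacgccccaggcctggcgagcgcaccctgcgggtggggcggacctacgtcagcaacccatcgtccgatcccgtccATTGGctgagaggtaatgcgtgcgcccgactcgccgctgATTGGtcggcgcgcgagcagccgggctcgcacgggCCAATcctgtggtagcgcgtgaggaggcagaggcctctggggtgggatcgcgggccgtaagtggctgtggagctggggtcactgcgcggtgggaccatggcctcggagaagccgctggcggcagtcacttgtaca

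Most cytoplasmic ribosomal protein genes, 33 of those kept, were below control with siRNA-2. Of 79 listed genes 46 were measured and 45 kept, of which 11 were at least 1.5-fold lower (4.00% over all kept genes), 0 higher and 34 neither, with a median of -0.35 with siRNA-2 and -0.30 with siRNA-1. RPS15A, of the small subunit, stood at 8.81 with control, 8.34 with siRNA-1 and 7.41 with siRNA-2, 2.64-fold lower with siRNA-2. RPL34 was 2.12-fold lower (7.96, 7.18 and 6.88), and the brighter RPL36 1.76-fold lower (10.70, 9.91 and 9.89). RPL36 stood near its siRNA-2 level with siRNA-1 already, whereas RPS15A had a log2 ratio of -0.93 of siRNA-2 over siRNA-1. Processed copies of near-identical sequence exist for many of these genes, which makes single values uncertain. Of 71 kept mitochondrial ribosomal proteins 2 were lower, 2.82% against 4.00% of all kept genes, and 0 higher, with a median of 0. They were MRPS12 (8.03, 8.18 and 7.17) and MRPL40 (10.28, 10.46 and 9.65), and MRPL40 was under 1.5-fold with each array centred on its median (-0.58).

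Other parts of protein synthesis were mostly near control. Of 19 kept translation factors 2 were lower and 0 higher, with a median of 0.01. The lower share was 10.5%, against 4.00% of all kept genes. EEF2, the elongation factor that moves the ribosome along, stood at 13.23 with control, 12.85 with siRNA-1 and 12.23 with siRNA-2, 2.00-fold lower with siRNA-2. EIF4B had a ratio of -0.63 and of -0.48 with the mean of its probe sets. Of 31 kept nucleolar genes 1 was higher, HEATR1 (10.34, 10.92 and 11.11), and 0 lower. That is 3.23% higher, against 2.19% of all kept genes. The heat shock list had 3 of 13 kept members lower, against 4.00% of all kept genes, and 0 higher. They were HSPA1A (11.42, 10.63 and 10.74), its near-identical neighbour HSPA1B (11.20, 10.52 and 10.56), whose probes may read each other's transcript, and HSPA2.

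WDR5 was the only member of its own list past 1.5-fold with siRNA-2, 1 of 27 kept subunits of WDR5 complexes, and the median was -0.06. That is 3.70% lower, near the 4.00% of all kept genes. DPY30 and RBBP5, subunits of the methyltransferase core, had ratios of -0.31 and -0.13, and KMT2D, a methyltransferase of these complexes, of 0. RBBP5 and KMT2D were chosen after their values were seen. Of 61 kept histone modifying enzymes 2 were lower, 3.28% against 4.00% of all kept genes, and 0 higher, with a median of 0. CARM1, an arginine methyltransferase, was 1.82-fold lower (10.52, 9.89 and 9.65) and KDM7A, a histone demethylase, 1.75-fold lower (8.91, 8.61 and 8.10). In the MYC and MAX network 0 of 11 kept genes were past 1.5-fold, and the median was 0.11. Over all kept genes 2.19% were higher and 4.00% lower, so 0 in so short a list is near those shares.

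In the signalling lists the genes past 1.5-fold were few and ran in both directions, to be read against 2.19% higher and 4.00% lower over all kept genes here and in the neuronal and matrix lists. Of 23 kept immediate-early and feedback genes 3 were higher, EGR1, JUNB (8.78, 9.56 and 9.73) and ARC (7.24, 7.72 and 8.05), and 1 was lower, JUND (8.44, 8.73 and 7.68). JUNB and JUND both encode partners of the AP-1 transcription factor. Of 15 kept neurotrophic receptors and ligands 2 were higher and 2 lower. Beside RET, IGF1R was 1.69-fold higher (9.31, 9.85 and 10.06), while the growth factor MDK, midkine, was 1.70-fold lower with siRNA-2 (10.35, 10.44 and 9.58). GFRA2, a co-receptor of RET for neurturin, was 1.59-fold lower (7.63, 7.42 and 6.96). In the insulin-like growth factor axis the binding proteins IGFBP4 (10.21, 9.43 and 9.17) and IGFBP5 (9.49, 8.02 and 8.51) were 2.06-fold and 1.97-fold lower. Of 14 kept p53 targets 2 were higher and 0 lower: SESN3, a stress-responsive brake on mTORC1 (8.27, 8.55 and 9.32), and PLK2, a polo-like kinase (6.82, 7.91 and 7.73).

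Genes of the noradrenergic and neuronal phenotype were near control as lists, with single members past the limit. Of 11 kept genes of noradrenaline synthesis and storage 2 were higher, 0 lower and the median was 0.01. CHGA, chromogranin A of the secretory granule, stood at 10.87 with control, 10.40 with siRNA-1 and 11.60 with siRNA-2. CYB561, which supplies electrons to noradrenaline synthesis inside the granule, stood at 9.90, 9.54 and 10.56. DBH, the enzyme that makes noradrenaline there, had a ratio of 0.51 (10.38, 9.58 and 10.90). In all 3 the siRNA-1 array was lowest and the siRNA-2 array highest. TH, the enzyme of the rate-limiting step and a neuroblastoma marker, stood at 7.29 on every array. The 16 kept adrenergic neuroblastoma factors had 0 members past 1.5-fold and a median of 0.10, with ISL1, a neuronal LIM homeodomain factor, at a ratio of 0.39.

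Of 19 kept axon guidance genes 2 were higher and 0 lower, NRP2 and its partner receptor PLXNA2 (8.65 with control, 8.79 with siRNA-1 and 9.35 with siRNA-2). The median of that list was 0.03, and the higher share over all kept genes 2.19%. Of 32 kept synaptic vesicle and SNARE genes 3 were higher and 2 lower, with a median of 0.07. Beside STXBP5 the higher ones were SYT4, a synaptotagmin (9.05, 9.82 and 9.93), and SYN2, a synapsin that tethers vesicles (8.71, 8.74 and 9.47). The lower ones were VAMP3, a vesicle SNARE of recycling endosomes (10.39, 10.50 and 9.21), and VAMP7, at a ratio of -0.60 that was -0.56 with each array centred on its median. SYN2 and VAMP3 were close to control with siRNA-1. Of 11 kept genes of extracellular matrix and proteases 3 were higher and 1 lower, with a median of 0. LUM, lumican, stood at 8.88, 10.40 and 9.86 and MMP16, a membrane-bound metalloproteinase, at 9.41, 9.76 and 10.28. Of the inhibitors of such proteases, TIMP3 was 2.07-fold higher (0.54 on the log2 scale with the mean of its probe sets) and TIMP2 1.56-fold lower. LUM is also 1 of 2 higher genes among 5 kept mesenchymal neuroblastoma markers, with MAML2, a Notch coactivator (7.78, 8.33 and 8.66). The other 3, VIM, TWIST1 and SNAI2, had ratios of -0.29, -0.15 and 0.06, and the median of that list was 0.06.

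In the kept set as a whole, 2.19% lay past 1.5-fold upward and 4.00% downward with siRNA-2. A short list with no such member is near those shares, so its genes cannot be called unmoved on that count. Several lists had no member past 1.5-fold with siRNA-2. They were oxidative phosphorylation (21 kept, median 0.01), glycolysis and glucose uptake (13 kept, 0.02), serine synthesis and the ATF4 response (19 kept, 0.03), endoplasmic reticulum chaperones (14 kept, 0.01), BCL2 family and caspases (16 kept, 0.00), interferon response and RNA sensors (7 kept, 0.00), small RNA silencing (9 kept, 0.05), TGF-beta, BMP and hedgehog signalling (17 kept, 0.00) and the HOX cluster (9 kept, 0.00). Of 296 kept zinc finger genes 2 were higher and 6 lower, with a median of -0.02, shares below those over all kept genes. Of 14 kept housekeeping references 1 was lower, REEP5, a protein that shapes endoplasmic reticulum tubules (11.59 with control, 11.43 with siRNA-1 and 10.62 with siRNA-2), so a gene of a reference list can also lie 1.95-fold from control between single arrays.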

How the data were processed

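The authors deposited a table of values per probe set with 1 column per array. The deposited values run from 1.34 to 14.9 and were taken as log2, since the table states no scale. Every fold rests on that reading. The submitters' processing notes name MAS5 without its role, and the normalization and the genome build are not given in the sources used here. No further scaling was applied, and having 1 array per group limits precision. Of 53617 rows 16098 had 1 symbol in the platform annotation, and all 16098 Entrez identifiers were found in RefSeq (GRCh38.p14), which gave symbols and biotypes.

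Ratios, counts past 1.5-fold and list medians were computed with Python 3.11.15, pandas 2.3.3 and numpy 2.4.6, and drawn with matplotlib 3.10.9. The counting was tested on simulated data with large planted changes and little added noise. This checks the counting step only, not whether the calls here would recur. The genes named are WDR5, the 15 highest and 15 lowest ratios, the 10 highest and 10 lowest of those within 1.2-fold of control with siRNA-1, and up to 6 members of each of 60 gene lists with the largest ratios. That rule leaves out small RNA genes, antisense transcripts, olfactory receptors and names of the LINC, LOC and open reading frame kind, and 5 lists were added after the values were seen. Marker genes, genes beside a limit and genes in small counts are named too. Members of 59 lists were kept. The comparison and the lists were chosen with earlier results of these data known. The alternatives were quantile normalization, centring, other level filters, the mean of a gene's probe sets, other folds and other limits for siRNA-1. Single arrays per group give no p-value.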

Additional observations from a re-analysis of the deposited data

How the results depend on the processing

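Quantile normalization gave 185 higher and 237 lower genes with siRNA-2, and centring each array on its median 183 and 240, against 163 and 298. These settings moved the median ratio of all genes by 0.05. Both kept all counts within 1.5 times the main ones, as did no level filter and the mean of a gene's probe sets. A level filter at the 75th percentile left 154 lower genes, and 32 higher and 79 lower genes near control with siRNA-1. Requiring a level above the highest background row left 102 and 119, with 27 and 59 near control with siRNA-1. These filters test fewer genes. At 2-fold 29 and 49 genes were counted, with 7 and 19 near control with siRNA-1. With siRNA-1 limited only to under 1.5-fold in the same direction the counts of the last kind were 117 and 235, and within 1.1-fold 22 and 74. No named gene changed direction at 1.5-fold. Under quantile normalization 10 named genes dropped below 1.5-fold and 6 passed it. With centring these were 12 and 5, and with the mean of the probe sets 5 dropped below it. The cause was not tested. No paired analysis was possible because each group had 1 array, and for the same reason no replicate could be left out.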
